A study of Mus musculus with 48 samples.

Results

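Somatostatin (Sst), neuropeptide Y (Npy) and 7 of their receptors (Sstr1, Sstr2, Sstr3, Sstr4, Npy1r, Npy2r and Npy5r) were followed through the hippocampal transcriptome of conditional CB1-KO mice. These 9 genes were taken by symbol from the 24421 genes of the deposited count matrix, and all 9 passed the filter on low counts in every comparison. The study sequenced RNA from the dissected Cornu Ammonis (CA1, CA2 and CA3, with the dentate gyrus removed) of 48 male mice, 1 library per mouse, in 8 groups. Every mouse carried floxed alleles of the CB1 gene (CB1 f/f) as far as the study's methods describe the lines, with KO mice and CB1-WT littermates separated by the Cre transgene. In Glu-CB1-KO mice, Cre under the regulatory elements of Nex (Neurod6) deletes CB1 in dorsal telencephalic glutamatergic neurons. In GABA-CB1-KO mice, Cre under those of Dlx5/6 deletes it in forebrain GABAergic neurons. Mice were labelled as 8 weeks old and were killed from the home cage (basal) or after 5 min in an open field arena, a new environment, with the tissue taken some time after the exposure. The Glu-CB1 line gave 5 CB1-WT and 7 KO mice per state. The GABA-CB1 line gave 6 CB1-WT and 6 KO basal mice, and 7 CB1-WT and 5 KO mice for the open field. These are the numbers of the labels, which the study's text gives the other way round for the GABA-CB1 open field mice.

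Somatostatin and NPY are inhibitory peptides of the hippocampus, where they are made mainly by GABAergic interneurons that share a lineage, and the pair is often found in the same dendrite-targeting cells. Ivy and neurogliaform cells make NPY without somatostatin. Both peptides act through receptors coupled to Gi/o proteins: the somatostatin receptors damp pyramidal cells and transmitter release, Npy1r and Npy5r are mostly postsynaptic, and Npy2r is the presynaptic receptor through which NPY limits glutamate release in CA3 and CA1. CB1 is a presynaptic Gi/o-coupled receptor as well, found on glutamatergic terminals and, at a higher density, on terminals of CCK interneurons.

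Opposite differences were seen in the KO mice of the 2 lines. Pooled over both states, Npy rose in Glu-CB1-KO mice by 39.9%, and this call held in every fit made. Sst rose there by 27.9% and Npy2r fell by 0.32 on the log2 scale, but the call of Sst was lost in most fits that left out 1 library, and the calls of both were lost without the libraries that stood apart. Sst fell in GABA-CB1-KO mice by 0.31 on the log2 scale, and Npy was lower by a similar size without passing the test with edgeR. The other 6 receptors did not pass the test in the main edgeR fit of any comparison. DESeq2, the tool the study used, called Npy and Sstr2 in GABA-CB1-KO mice over both states, and Sstr1 in Glu-CB1-KO mice after the open field. Of all genes it called 131 in the first of these comparisons and 123 in the second, against 55 and 41 with edgeR. Changes were tested with edgeR's quasi-likelihood test on the counts, fitted on all genes, with Benjamini-Hochberg adjustment over all genes tested and a threshold of 0.05 for differentially expressed genes (DEGs).

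The 9 genes lie on 8 chromosomes, and the deposited coordinates are those of mouse genome mm10. Sst is on chromosome 16 at 23889581 to 23890844 on the minus strand, with 2 exons that together span 599 bases. Npy is on chromosome 6 at 49822729 to 49829505 on the plus strand, with 4 exons of 545 bases. Neurod6, from whose locus Nex-Cre is expressed, is on the same chromosome at a distance of 5848314 bases, and Neurod6 itself fell by 0.66 on the log2 scale in basal Glu-CB1-KO mice (edgeR, adjusted p = 5.10e-04). An effect of the linked locus on Npy and an effect of CB1 deletion cannot be told apart in this line. Npy2r is on chromosome 3 at 82538383 to 82548085 on the minus strand. Npy1r (66697422 to 66706798, plus strand) and Npy5r (66679965 to 66688094, minus strand) are neighbours on chromosome 8, 9328 bases apart and transcribed away from each other. Sstr1 is at 58211804 to 58216036 on chromosome 12, Sstr2 at 113619481 to 113625895 on chromosome 11, Sstr3 at 78537015 to 78544345 on chromosome 15, and Sstr4, a gene with 1 exon, at 148395377 to 148396764 on chromosome 2.

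The promoters of Sst, Npy and Npy2r are shown, since Sst and Npy rose together in Glu-CB1-KO mice and Npy2r fell. Each runs from 250 bases before to 50 bases after the transcription start given by RefSeq on build GRCm38.p6, the build that mm10 is made from, and is written 5′ to 3′ on the strand of the gene. Capitals mark a cAMP response element (CRE, TGACGTCA) or a GC box (GGGCGG, read on either strand).
Sst, chr16:23890795-23891094: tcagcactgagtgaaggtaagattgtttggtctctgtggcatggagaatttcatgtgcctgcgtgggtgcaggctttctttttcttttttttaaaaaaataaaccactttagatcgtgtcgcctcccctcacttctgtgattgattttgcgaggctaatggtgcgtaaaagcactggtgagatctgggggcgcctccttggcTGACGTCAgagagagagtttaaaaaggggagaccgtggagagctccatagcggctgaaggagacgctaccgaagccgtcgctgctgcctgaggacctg
Npy, chr6:49822460-49822759: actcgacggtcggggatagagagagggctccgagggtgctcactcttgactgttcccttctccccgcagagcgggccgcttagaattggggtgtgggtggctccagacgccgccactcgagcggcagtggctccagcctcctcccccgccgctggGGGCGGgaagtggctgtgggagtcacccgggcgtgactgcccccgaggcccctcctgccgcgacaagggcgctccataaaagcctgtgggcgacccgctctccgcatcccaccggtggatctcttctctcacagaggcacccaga
Npy2r, chr3:82548036-82548335: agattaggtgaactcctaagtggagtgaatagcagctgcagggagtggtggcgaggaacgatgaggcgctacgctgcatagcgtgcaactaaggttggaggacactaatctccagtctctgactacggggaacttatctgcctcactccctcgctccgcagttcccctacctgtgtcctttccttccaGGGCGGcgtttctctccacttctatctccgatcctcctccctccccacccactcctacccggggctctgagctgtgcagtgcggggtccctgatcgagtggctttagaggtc
The Sst promoter holds the CRE, the element through which cAMP signalling drives somatostatin, beginning 48 bases before the start. A match to these 8 letters was found in 588 of 32851 mouse promoters of this length (1.79%). The Npy promoter holds no CRE and 1 GC box beginning 95 bases before the start, and the Npy2r promoter holds 1 GC box at 62 bases before it. GC boxes were found in 35.7% of all promoters. Among the receptors, Sstr2 also holds a CRE, 58 bases before its start. The exact letters of a TATA box (TATAAA) were searched on both strands too and were found in none of the promoters of these genes, against 13.6% of all promoters. Variants of these letters were not searched, so a TATA box of another spelling may be present. The Sstr1 promoter was not analysed here.

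Between 25892654 and 34091080 reads were counted per library (median 30975561). Levels are given in CPM, the count scaled by the library's total after TMM normalisation. Each KO library had less Cnr1, the gene of CB1, than any CB1-WT library of its line and state, as the genotype labels require. In the basal Glu-CB1 line Cnr1 lay at 338 to 412 CPM in CB1-WT and 208 to 248 CPM in KO libraries, and in the GABA-CB1 line after the open field at 336 to 394 CPM and 100.3 to 155 CPM. Along the first principal component of the deviations from the group means (25% of the variance), 14 of the 48 libraries stood apart from the rest, between 1 and 3 in each group. Among the 9 genes, Sstr4 moved with this component (Pearson r = 0.71 over 48 libraries), while r lay between -0.22 and 0.32 for the other genes. The tissue was checked by its markers. The 5 glutamatergic markers (Slc17a7 and others) summed to 7045 to 8745 CPM per library and the 10 markers of all GABAergic neurons (Gad1 and others) to 1026 to 1305 CPM. The 7 markers of dentate granule and hilar mossy cells summed to 93.4 to 297 CPM and the 5 markers of choroid plexus to 39.4 to 4032 CPM, so these tissues were present to a varying degree. None of these 4 lists held a gene under 0.1 CPM on average or a gene that passed the test between KO and CB1-WT mice.

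Levels between genes were compared per length of exon, as RPKM, which is CPM per kilobase of exon. Sst was the most abundant of the 9 transcripts, at 172 ± 29.5 RPKM (SD over 48 libraries), and ranged from 141 RPKM in GABA-CB1-KO mice after the open field to 202 RPKM in basal Glu-CB1-KO mice as group means. Npy followed with 56.5 ± 10.8 RPKM. Both peptides stood above all their receptors in each of the 48 libraries.

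The receptor with the highest level was Npy2r, with 28.4 ± 3.51 RPKM, and it exceeded every other receptor in all 48 libraries. Sstr4 had 15.3 ± 2.07 RPKM, Sstr3 12.1 ± 1.12 RPKM and Npy1r 11.3 ± 1.2 RPKM. These 3 receptors are known from pyramidal cells, and Sstr3 is best known from their primary cilium. Sstr4 exceeded Sstr3 in 45 libraries and Sstr3 exceeded Npy1r in 34, so the order of Sstr3 and Npy1r did not hold across mice. Sstr1 (4.62 ± 0.82 RPKM), Npy5r (3.62 ± 0.36 RPKM) and Sstr2 (3.48 ± 0.57 RPKM) were the lowest. Npy5r exceeded Sstr2 in 32 of 48 libraries. Because exon length was taken from the annotation, an unannotated transcript end would change a value per length and leave the comparisons between mice as they are.

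**Figure D1:**
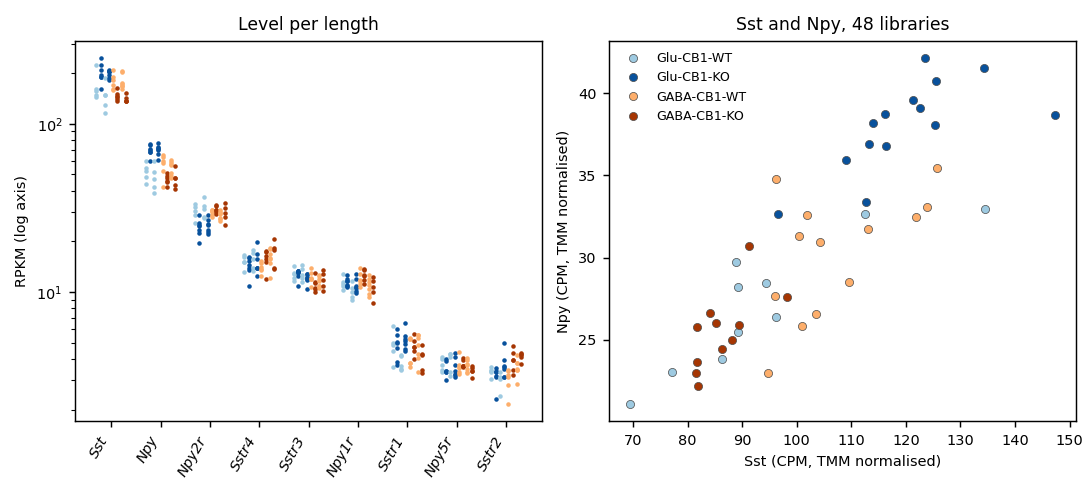
Left, level per length of the 9 genes (RPKM, log axis), with 1 point per library and colours for line and genotype as in the right panel. Right, Sst against Npy in CPM for the 48 libraries. Glu-CB1-KO libraries lie at the upper right. GABA-CB1-KO libraries lie at the lower left, together with Glu-CB1-WT libraries, which hold the lowest Sst (69.5 CPM) and the lowest Npy (21.1 CPM), both after the open field.

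Sst, the precursor of somatostatin, was measured first in the Glu-CB1 line. The 5 basal CB1-WT libraries had 86.4, 88.9, 94.4, 96.2 and 134 CPM, and the 7 basal Glu-CB1-KO libraries ranged from 96.5 to 147 CPM with a median of 116 CPM. The groups overlapped, because 1 CB1-WT library was as high as the upper KO libraries. The fold change was 0.27 ± 0.11 on the log2 scale (SE) and did not pass the test (edgeR, adjusted p = 0.999). In open field mice, the 5 CB1-WT libraries had 69.5, 77.2, 89.2, 89.3 and 113 CPM, and the 7 KO libraries ranged from 109 to 125 CPM with a median of 121 CPM. A single CB1-WT library reached into the range of the KO libraries. This difference, 0.44 ± 0.09, lay just outside the threshold (edgeR, adjusted p = 0.0574), and passed it in 6 of 9 other settings (adjusted p from 0.000673 to 0.379 over the 9) and without Glu-CB1-WT open field replicate 2, the library at 113 CPM (0.00142). With both states in 1 fit, the rise of Sst in Glu-CB1-KO mice was 0.36 ± 0.08 on the log2 scale (edgeR, adjusted p = 0.0419). That call lay near the threshold. It was lost in 19 of the 24 fits that left out 1 library (edgeR, adjusted p from 0.00156 to 0.105 over the 24). It was also lost without the libraries that stood apart (0.0796) and with a covariate for the range in which the animal numbers fall (0.105). The fold change stayed between 0.29 and 0.42 in all of these fits.

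In the GABA-CB1 line, Sst moved the other way. The 6 basal CB1-WT libraries ranged from 94.7 to 126 CPM (median 106 CPM) and the 6 GABA-CB1-KO libraries from 81.6 to 98.3 CPM (median 87.2 CPM). In open field mice, the 7 CB1-WT libraries ranged from 96.1 to 124 CPM (median 103 CPM), and the 5 KO libraries had 81.7, 81.8, 81.9, 85.2 and 91.3 CPM. Every KO library after the open field was below every CB1-WT library, a separation shared by 0.987% of the genes tested in that comparison. The differences within a state, -0.28 ± 0.06 and -0.35 ± 0.06, did not pass the test (edgeR, adjusted p = 0.127 and 0.107). With both states in 1 fit, Sst fell by 0.31 ± 0.05 on the log2 scale in GABA-CB1-KO mice (edgeR, adjusted p = 8.6e-04), and this call held in all 24 fits without 1 library and in all 9 other settings. In bulk tissue, fewer somatostatin cells and less Sst RNA per cell cannot be told apart.

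Npy, the precursor of neuropeptide Y, showed the clearest separation in the Glu-CB1 line. The 5 basal CB1-WT libraries had 23.8, 26.4, 28.4, 29.7 and 33 CPM, and the 7 basal Glu-CB1-KO libraries ranged from 32.7 to 41.5 CPM with a median of 38.2 CPM. The groups met only at their edges. In open field mice, the 5 CB1-WT libraries had 21.1, 23.1, 25.5, 28.2 and 32.6 CPM, and the 7 KO libraries ranged from 33.4 to 42.1 CPM with a median of 38.7 CPM. Here all KO libraries were above all CB1-WT libraries, which was so for 0.743% of the genes tested. The basal difference was 0.42 ± 0.07 on the log2 scale (edgeR, adjusted p = 0.149), and it passed the test without Glu-CB1-WT basal replicate 3 (0.0260). After the open field Npy rose by 0.55 ± 0.09 (edgeR, adjusted p = 0.0185), a call that was lost without Glu-CB1-WT open field replicate 4 (adjusted p = 0.0762) or 5 (0.0508), without Glu-CB1-KO open field replicate 1 (0.0569) and without the libraries that stood apart (0.202). Over both states Npy rose by 0.48 ± 0.06 (edgeR, adjusted p = 8.61e-05). This call held in every fit made, with adjusted p up to 0.00487 and fold changes from 0.42 to 0.53 on the log2 scale.

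Npy was lower in GABA-CB1-KO mice, but did not pass the test with edgeR. With DESeq2 it did so over both states (adjusted p = 0.02115). Basal CB1-WT libraries ranged from 23 to 35.4 CPM (median 32.2 CPM, n = 6) and KO libraries from 23 to 27.6 CPM (median 25.5 CPM, n = 6). In open field mice, CB1-WT libraries ranged from 25.9 to 33.1 CPM (median 30.9 CPM, n = 7), and the 5 KO libraries had 22.2, 23.7, 25.8, 26.1 and 30.7 CPM. The groups overlapped in both states. The differences were -0.29 ± 0.09 and -0.21 ± 0.08 on the log2 scale (edgeR, adjusted p = 0.350 and 0.319), and -0.25 ± 0.06 over both states (edgeR, adjusted p = 0.0851). Without GABA-CB1-WT basal replicate 5, the lowest Npy library of its group, Npy passed the test in the basal state (adjusted p = 0.0324) and over both states (0.0166), and it did so over both states without GABA-CB1-KO open field replicate 1 (0.0174).

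Npy2r, the presynaptic NPY receptor, moved against its ligand in the Glu-CB1 line. The 5 basal CB1-WT libraries had 86.0, 96.6, 101, 108 and 113 CPM, against 66.0 to 96.4 CPM (median 83.3 CPM) in 7 KO libraries. Open field CB1-WT libraries had 91.9, 93.3, 105, 109 and 124 CPM, against 74.0 to 95.8 CPM (median 84.1 CPM) in 7 KO libraries. KO libraries were low in both states with some overlap. The differences of -0.31 ± 0.08 and -0.33 ± 0.08 on the log2 scale did not pass the test within a state (edgeR, adjusted p = 0.940 and 0.113). Over both states Npy2r fell by 0.32 ± 0.06 (edgeR, adjusted p = 0.00794). This call held in all 24 fits without 1 library and was lost without the libraries that stood apart (adjusted p = 0.0990). In the GABA-CB1 line the group means of Npy2r lay between 96.0 and 104 CPM, and the difference over both states was 0.05 ± 0.04 (edgeR, adjusted p = 0.767).

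Markers of neighbouring tissue were followed beside these genes. The sum of 7 markers of subiculum and cortex (Fn1, Slc17a6, Nts, Rorb, Cux2, Tshz2 and Tbr1) had r = -0.59 with Npy2r, 0.34 with Sst and 0.11 with Npy over the 48 libraries. Over all libraries it ranged from 125 to 273 CPM, and its median was 161 CPM in CB1-WT and 198 CPM in KO mice of the basal Glu-CB1 line and 162 and 193 CPM after the open field, with overlap. In that line 5 of the 7 were above 0 over both states (median 0.15 on the log2 scale), and in the GABA-CB1 line 1 was above and 6 were below 0 (median -0.11). The difference between lines was above 0 for 7 of 7 in the basal state (median 0.24) and for 6 of 7 after the open field (median 0.20). None passed the test in any of these comparisons, and none was under 0.1 CPM on average. These directions are those of Sst and Npy. The sum of 5 glutamatergic markers had r = 0.51 with Npy2r and -0.47 with Sst. Group means were not subtracted for any r of this paragraph, so each includes differences between the groups. The part of these markers in the differences of Npy2r, Sst and Npy was not tested.

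**Figure D2:**
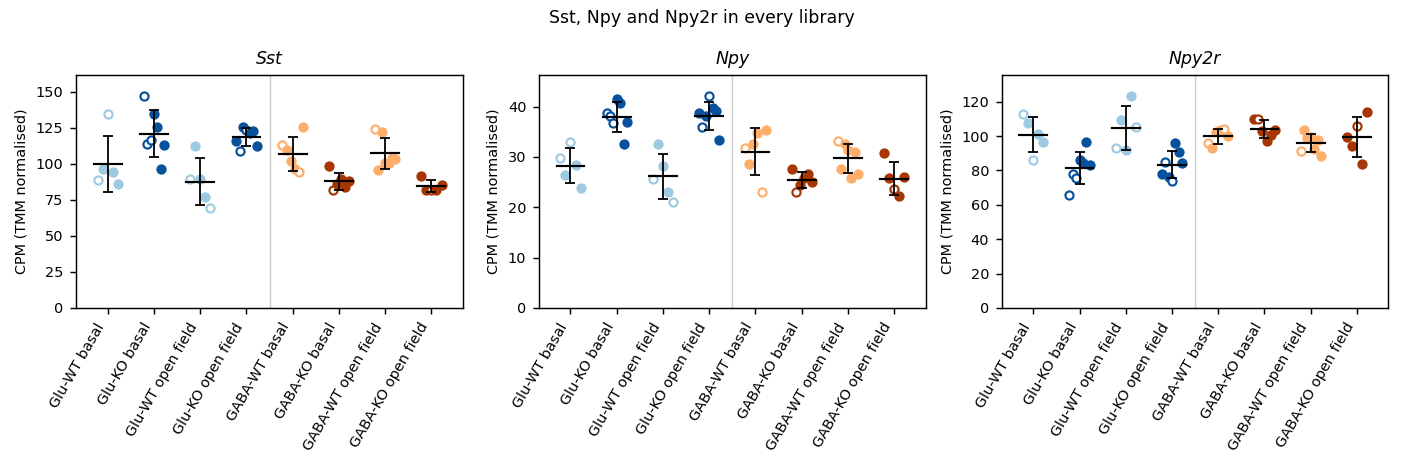
Sst, Npy and Npy2r in each library (CPM, normalised by TMM) for the 8 groups of line, genotype and state, with black lines at the mean ± SD and open circles for the 14 libraries that stand apart. Npy is higher in Glu-CB1-KO than in Glu-CB1-WT mice in both states, Npy2r is lower there, and Sst and Npy are lowest in GABA-CB1-KO mice and in Glu-CB1-WT mice after the open field.

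The order of the groups was much alike for the peptides. Sst was highest in Glu-CB1-KO mice (121 ± 16.5 CPM basal, 119 ± 6.14 CPM open field), then in GABA-CB1-WT mice (107 ± 11 CPM open field, 107 ± 11.7 CPM basal), then in basal Glu-CB1-WT mice (100.05 ± 19.6 CPM), and lowest in basal GABA-CB1-KO mice (88.0 ± 5.78 CPM), Glu-CB1-WT mice after the open field (87.6 ± 16.3 CPM) and GABA-CB1-KO mice after the open field (84.4 ± 4.15 CPM). Npy was highest in the same Glu-CB1-KO groups (38.1 ± 2.79 CPM open field, 37.9 ± 2.94 CPM basal) and lowest in GABA-CB1-KO mice (25.7 ± 3.23 CPM open field, 25.4 ± 1.65 CPM basal). Npy2r was lowest in both Glu-CB1-KO groups (83.4 ± 7.90 CPM open field, 81.4 ± 9.49 CPM basal). For each of the 9 genes, all 7 pairs of groups next to each other in the order overlapped in their libraries. Between the CB1-WT mice of the lines, the mean of Sst after the open field was 87.6 CPM (Glu-CB1) and 107 CPM (GABA-CB1). In the basal state it was 100.05 and 107 CPM. The libraries of the lines overlapped in both states, and these differences were not tested.

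The KO effects of the lines were compared directly, as the Glu-CB1 effect minus the GABA-CB1 effect within a state. After the open field this difference was 0.78 ± 0.12 on the log2 scale for Sst (edgeR, adjusted p = 0.00108) and 0.76 ± 0.13 for Npy (edgeR, adjusted p = 0.00417). In the basal state it was 0.71 ± 0.12 for Npy (edgeR, adjusted p = 0.00547) and 0.56 ± 0.14 for Sst, which did not pass the test (edgeR, adjusted p = 0.125) but did so without Glu-CB1-WT basal replicate 3 (0.00466) or Glu-CB1-KO basal replicate 6 (0.0432). Each of the 3 calls held in all 24 fits without 1 library, and only that of Npy after the open field was lost in 1 of the 9 other settings, without the libraries that stood apart (adjusted p = 0.0846). For Npy2r the difference was -0.37 and -0.38 (edgeR, adjusted p = 0.145 and 0.117). The share of all tested genes that passed was 0.279% in the basal state, beside 1 of the 9 genes (Npy). After the open field it was 0.568%, beside 2 of the 9 (Sst and Npy). The study had named both genes from these samples.

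None of the 4 somatostatin receptors passed the test in the main edgeR fit of any comparison. Sstr1 was at 18.6 CPM in both genotypes of the basal Glu-CB1 line (0.00 ± 0.14 on the log2 scale). In open field mice, the 5 Glu-CB1-WT libraries had 13.4, 13.5, 14.1, 16.1 and 16.3 CPM and the 7 KO libraries ranged from 17.3 to 25.5 CPM (median 19.6 CPM), with no overlap. The difference of Sstr1 was 0.45 ± 0.09 and lay just outside the threshold (edgeR, adjusted p = 0.0544), as did its difference between lines of 0.69 ± 0.17 (edgeR, adjusted p = 0.0529). The first difference passed in 5 of 9 other settings (adjusted p from 0.000842 with DESeq2 to 0.255 with all 48 libraries in one fit over the 9) and without Glu-CB1-KO open field replicate 6, its highest library (0.0477). The difference between lines passed in 3 of 9 other settings and in 4 of 24 fits without 1 library. In the GABA-CB1 line Sstr1 differed by 0.08 ± 0.11 in the basal state and by -0.23 ± 0.13 after the open field (edgeR, adjusted p = 0.860 and 0.439).

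Sstr2 was the lowest of the 9 genes per length. In basal GABA-CB1 mice it ranged from 3.56 to 5.69 CPM (median 5.21 CPM) in 6 CB1-WT libraries and from 5.30 to 7.91 CPM (median 6.48 CPM) in 6 KO libraries. In open field mice it ranged from 4.67 to 6.96 CPM in 7 CB1-WT libraries and was 6.17, 6.78, 6.91, 7.06 and 7.11 CPM in 5 KO libraries. These groups overlapped, and the difference over both states of 0.30 ± 0.08 on the log2 scale did not pass the test (edgeR, adjusted p = 0.0864). It did so without GABA-CB1-WT open field replicate 1 (edgeR, adjusted p = 0.0466) and with DESeq2 (adjusted p = 0.0183). In Glu-CB1 mice the differences of Sstr2 were -0.08 ± 0.09 (basal) and 0.30 ± 0.12 (open field), neither past the test (edgeR, adjusted p = 0.999 and 0.559).

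Sstr3, Sstr4, Npy1r and Npy5r gave small differences in both lines. Sstr3 lay between 43.6 and 50.6 CPM as group means, and its largest difference between genotypes was -0.14 ± 0.07 on the log2 scale, in the basal GABA-CB1 line (edgeR, adjusted p = 0.623). Sstr4 lay between 19.4 and 23.4 CPM, and its largest difference between genotypes was 0.16 ± 0.08, in the same comparison (adjusted p = 0.655). Npy1r, the main postsynaptic NPY receptor, lay between 30.3 and 37.6 CPM, with a largest difference between genotypes of 0.12 ± 0.07 in the Glu-CB1 line after the open field (adjusted p = 0.882). Npy5r lay between 7.88 and 8.87 CPM, with differences between genotypes of 0.10 or less in size.

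**Figure D3:**
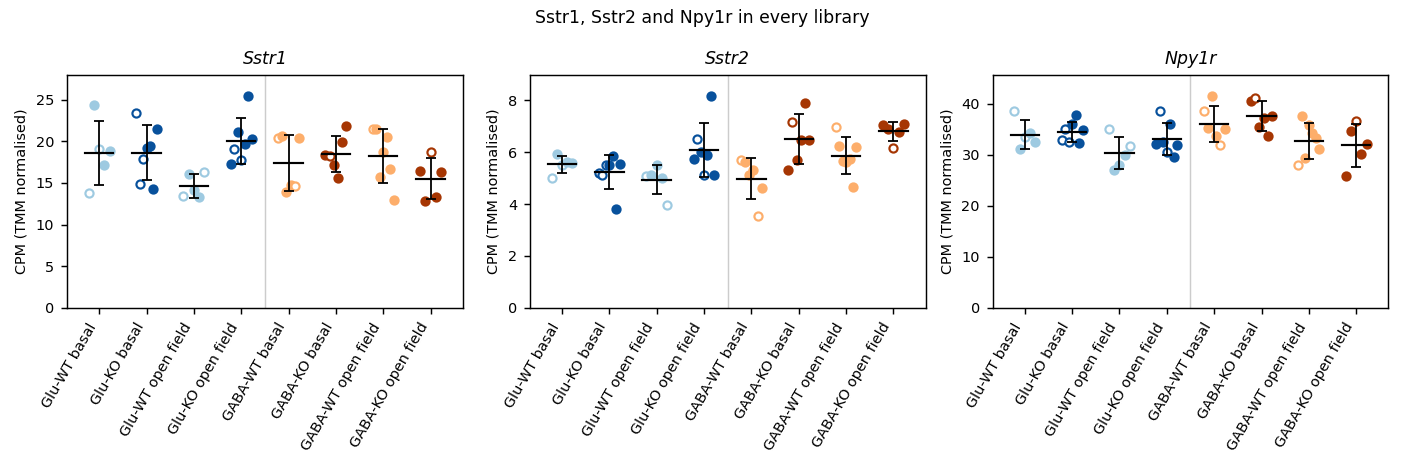
Sstr1, Sstr2 and Npy1r in each library (CPM, normalised by TMM) for the 8 groups, with black lines at the mean ± SD and open circles for the 14 libraries that stand apart. Glu-CB1-KO libraries after the open field lie above their CB1-WT libraries for Sstr1 only, and the mean of Npy1r is lower after the open field than in the basal state in both genotypes of both lines, without passing the test.

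Counted over the comparisons, the calls among the 9 genes are given beside the share of calls among all genes. The study had named Sst and Npy from these samples, so the counts do not show an enrichment of the set. Of all tested genes, 0.0198% were DEGs in basal Glu-CB1-KO mice, where none of the 9 passed with edgeR. At an unadjusted p under 0.05 there were 3 of the 9 (Sst, Npy and Npy2r) beside 3.57% of all genes, and DESeq2 called 1 (Npy) beside 0.0793%. In the open field mice of that line 0.272% were DEGs, and 1 of the 9 passed (Npy). At an unadjusted p under 0.05 there were 5 of the 9 beside 6.97% of all genes, and DESeq2 called 4 (Sst, Sstr1, Npy and Npy2r) beside 0.816%. For the GABA-CB1 line the shares were 0.245% (basal) and 0.0199% (open field), and none of the 9 passed in either with edgeR. In each state 3 of the 9 (Sst, Sstr2 and Npy) had an unadjusted p under 0.05, beside 8.16% of all genes (basal) and 13.2% (open field), and DESeq2 called 1 (Sst), beside 0.729% and 1.01%. Over both states, the share of DEGs was 0.274% for Glu-CB1-KO and 0.358% for GABA-CB1-KO mice, against 3 (Sst, Npy and Npy2r) and 1 (Sst) of the 9. The genotypes were fully separated for Sstr1 and Npy in open field mice of the Glu-CB1 line, where 0.743% of all genes were, and for Sst in those of the GABA-CB1 line, where 0.987% were. In the basal state they overlapped for all 9 genes, while 0.192% of all genes were separated in the Glu-CB1 line and 0.709% for GABA-CB1.

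**Figure D4:**
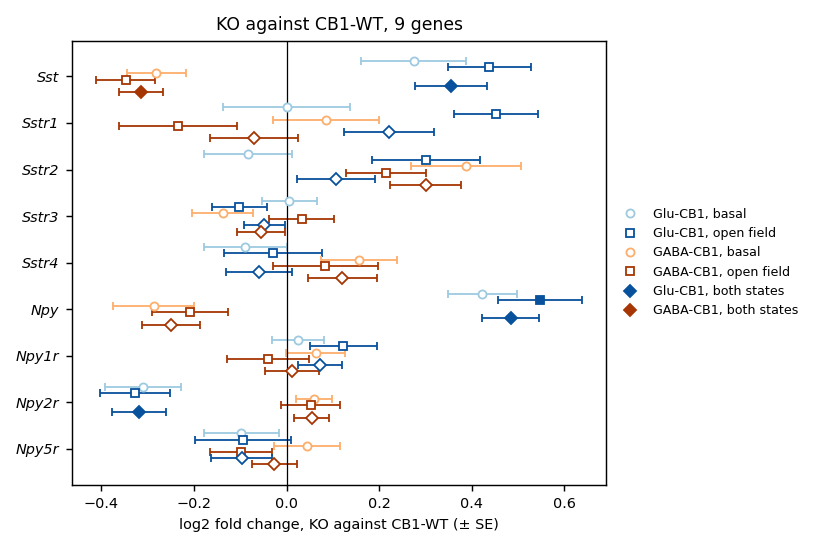
Difference of KO from CB1-WT mice (log2 fold change, horizontal axis, bars ± SE) for the 9 genes, by line and state and over both states, with filled symbols for an adjusted p under 0.05 (edgeR). Sst and Npy lie to the right of 0 in the Glu-CB1 line and to the left in the GABA-CB1 line, and Npy2r lies to the left in the Glu-CB1 line only.

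None of the 9 genes passed the test for the open field, although 1.80% of all genes passed among Glu-CB1 and 0.963% among GABA-CB1 mice, including the activity genes Arc, Fos and Egr2 in both. At an unadjusted p under 0.05, there was 1 of the 9 genes (Npy1r) among Glu-CB1 mice, near the 13.9% of all genes, and 3 (Sstr2, Sstr4 and Npy1r) among GABA-CB1 mice, beside 12.1%. DESeq2 called none of the 9 in either, beside 3.17% and 1.76% of all genes. Npy1r differed by -0.10 ± 0.05 (Glu-CB1) and -0.18 ± 0.06 (GABA-CB1) on the log2 scale (edgeR, adjusted p = 0.319 and 0.141). The KO effect on the 9 genes did not change with the open field past the test in either line (edgeR; 2 of the 9, Sstr1 and Sstr2, at an unadjusted p under 0.05 among Glu-CB1 mice, 0 among GABA-CB1 mice, and none with DESeq2). Over all genes 0% passed this test in either line (edgeR; 379 genes or 2.47% in the Glu-CB1 and 2237 genes or 14.6% in the GABA-CB1 line at an unadjusted p under 0.05, and 0 and 63 genes or 0.410% with DESeq2).

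Genes whose level went most closely with the peptides over the 48 libraries were ranked among 15570 genes by Pearson's r of log2 CPM. For Sst these were Crhbp (r = 0.91), Npy (0.87), Tac1 (0.77), Rab3b (0.76) and Dner (0.74), and for Npy they were Crhbp (0.88), Sst (0.87), Gm3279 (0.79), Scg2 (0.72) and Rgs2 (0.69). Crhbp is the binding protein of corticotropin-releasing hormone, Rab3b a vesicle protein, Tac1 the precursor of substance P and Scg2 a granin of dense-core vesicles. After the group means were subtracted, r with Sst was 0.77 for Crhbp, 0.72 for Npy, 0.64 for Tac1, 0.62 for Rab3b and 0.36 for Dner. Within groups, Npy went with Scg2 (0.64) and Crhbp (0.64) more than with Rgs2 (0.37) and Gm3279 (0.26). Npy2r ran against Sst over all libraries (r = -0.66) and less so within groups (-0.38), and its r with Npy went from -0.63 to -0.09. These libraries share the groups, the dissection and the sequencing depth, so the values describe the libraries only.

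Of the 10 genes chosen as markers of somatostatin interneurons, 9 were tested, and the list counts neither Sst nor Npy. Over both states in the Glu-CB1 line, 8 of the 9 were above 0 and 1 below, with a median of 0.08 on the log2 scale against -0.00 for all genes, and only Crhbp passed, with a rise of 0.48 ± 0.08 (edgeR, adjusted p = 0.00532). In the GABA-CB1 line, 2 were above 0 and 7 below, with a median of -0.05, and again only Crhbp passed, with a fall of 0.42 ± 0.06 on the log2 scale (edgeR, adjusted p = 5.01e-04). Crhbp also passed after the open field in the Glu-CB1 line (0.61 ± 0.10, edgeR, adjusted p = 0.0174), where it lost the call without Glu-CB1-WT open field replicate 3 (0.0597) or 4 (0.0647) and without the libraries that stood apart (0.0803). It passed in the basal GABA-CB1 line as well (-0.44 ± 0.07, edgeR, adjusted p = 0.00940), and not with all 48 libraries in the fit (0.0700) or with the animal number covariate (0.198). Between lines it differed by 0.80 ± 0.14 (basal) and 1.01 ± 0.15 (open field) on the log2 scale (edgeR, adjusted p = 0.00750 and 9.47e-04), and Rab3b by 0.55 ± 0.08 after the open field (edgeR, adjusted p = 0.00117). Lhx6, a transcription factor that marks the lineage, differed by 0.08 ± 0.05 (Glu-CB1) and by -0.09 ± 0.04 (GABA-CB1) over both states, in the directions of Sst. It did not pass the test (edgeR, adjusted p = 0.835 and 0.602). Summed over the 10 genes, the medians of the groups lay between 372 and 410 CPM. Because Sst, Npy, Crhbp and Rab3b were all named by the study from these samples, they are not independent evidence of a direction. The study also measured Crhbp and Npy after the open field by RT-qPCR in other mice, and those values were not analysed here.

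**Figure D5:**
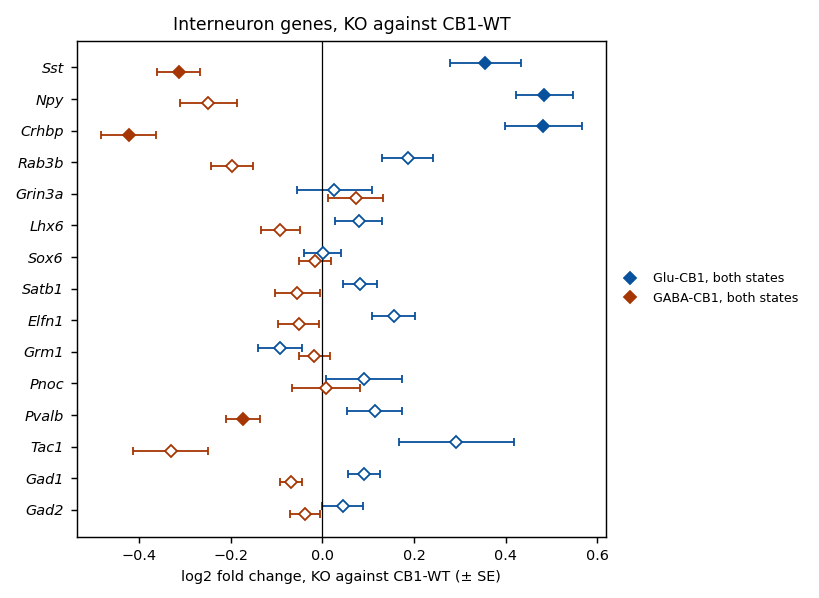
Difference of KO from CB1-WT mice over both states (log2 fold change, horizontal axis, bars ± SE) for Sst, Npy and interneuron markers in both lines, with filled symbols for an adjusted p under 0.05 (edgeR). Sst, Npy and Crhbp lie farthest from 0 among the filled symbols, while the symbols of Lhx6, Sox6, Satb1, Gad1 and Gad2 are not filled in either line.

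Other interneuron and neuron lists gave few calls. Of the 5 markers of parvalbumin interneurons, all were below 0 in the GABA-CB1 line over both states and 1 passed, Pvalb, which fell by 0.17 ± 0.04 on the log2 scale (edgeR, adjusted p = 0.0260). That call was lost in 8 of 24 fits without 1 library (adjusted p up to 0.0623). Tac1 differed between lines by 0.96 ± 0.20 after the open field (edgeR, adjusted p = 0.0172), and Gad1, the enzyme of GABA synthesis in all interneurons, by 0.25 ± 0.05 (edgeR, adjusted p = 0.00994). None of the 6 genes of neurogliaform and ivy cells and none of the 6 genes of CCK and VIP interneurons passed in any comparison of KO with CB1-WT mice, with medians over both states of 0.03 and 0.14 for Glu-CB1 and 0.03 and 0.11 for GABA-CB1 mice. Among the 6 markers of CA3 and CA2 pyramidal cells, Iyd fell by 0.56 ± 0.11 in the Glu-CB1 line after the open field (edgeR, adjusted p = 0.0463), a call lost in 10 of 12 fits without 1 library, and Bok fell by 0.52 ± 0.07 in the basal GABA-CB1 line (edgeR, adjusted p = 0.00328, and 0.0777 with the animal number covariate). The sum of these 6 markers had a median of 706 CPM in CB1-WT and 703 CPM in KO mice of the basal Glu-CB1 line, and of 686 and 743 CPM after the open field, with r = -0.01 to Npy2r over the 48 libraries. Of the 4 activity genes (Arc, Fos, Egr2 and Npas4), Npas4 was lower in basal GABA-CB1-KO mice and passed the test. Over the 12 fits without 1 library it lay from -0.53 to -0.46 on the log2 scale (edgeR, adjusted p from 0.00219 to 0.0245).

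Among the other genes of the pathway, Cort, the paralog of somatostatin, was the best measured family member, at 0.87 to 1.44 CPM as group means. Its direction was that of Sst without passing the test: 0.31 ± 0.18 (Glu-CB1) and -0.43 ± 0.15 (GABA-CB1) on the log2 scale over both states (edgeR, adjusted p = 0.782 and 0.339). Of the 7 family genes in the matrix beside the 9, 2 passed the filter on low counts and none passed the test. None of the 9 genes of Gi/o proteins and GIRK channels, through which these receptors act, passed in any comparison of KO with CB1-WT mice. Of the 6 genes that process peptide precursors, Pam, which amidates NPY among other peptides, fell by 0.14 ± 0.02 in the GABA-CB1 line over both states (edgeR, adjusted p = 0.00225), and no other passed.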

How the data were processed

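Gene counts of 48 hippocampal CA libraries (1 mouse each, grouped by the labels) were analysed. RNA was amplified by the authors with an Ovation kit of NuGEN; they sequenced single reads, trimmed them with bbduk, aligned them to mm10 with STAR (version 2.6.0a) and counted reads per gene with featureCounts (version 1.6.2, option -s 2). The deposited values are raw read counts per gene, not normalized. Whether the kit kept the strand is not given in the sources used here, so antisense reads cannot be told apart. No pair of libraries in a group agreed within sampling noise (123 pairs, lowest chi-square per degree of freedom 2.93).

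edgeR 4.0.16 in R 4.3.3 was used with filterByExpr, TMM and its quasi-likelihood test at a Benjamini-Hochberg adjusted p of 0.05. KO was compared with CB1-WT mice in the 12 libraries of a line and state, and over both states in the 24 libraries of a line with state in the model. The open field effect, its interaction with genotype and the line difference used 24 libraries each. DESeq2 (version 1.42.0), which the study used, was an alternative. Standard errors were derived from the F statistic, and CPM and RPKM used TMM over the 48 libraries. Correlations between genes and with the first component used log2 CPM with a prior count of 2. Those with sums of markers used CPM without logs. The fits were tested on simulated data. Named genes were the 9 members, the marker genes past the threshold, Cnr1 and Neurod6, and for Sst and Npy the 5 genes of highest correlation. The members and lists were chosen with earlier results of these data known. Each p-value weighs a difference against the spread between these mice. Libraries carry no molecular identifiers, and promoters come from RefSeq (GRCm38.p6), which listed 8 of the 9 genes.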

Additional observations from a re-analysis of the deposited data

Results flagged for a closer look

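The values that stood apart within a group were few. Of the 72 sets of 1 gene in 1 group, 4 held a library whose gap to the nearest other library was larger than Dixon's 95% limit for the group's size, and chance gives about 1 in 20 such sets. Sst in Glu-CB1-WT basal replicate 3 was 134 CPM against 96.2 CPM in the next library. Without this library the basal difference of Sst in the Glu-CB1 line was 0.40 on the log2 scale (edgeR, adjusted p = 0.409). Sstr2 in Glu-CB1-KO basal replicate 6 was 3.82 CPM against 5.14 CPM in the next, Sstr3 in Glu-CB1-KO basal replicate 2 was 42.3 CPM against 49.1 CPM, and Npy5r in GABA-CB1-WT basal replicate 3 was 10.2 CPM against 8.47 CPM.

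The KO effect differed between the lines, by a test of the difference itself, for Sst after the open field (0.78 ± 0.12 on the log2 scale, edgeR, adjusted p = 0.00108), for Npy in the basal state (0.71 ± 0.12, edgeR, adjusted p = 0.00547) and for Npy after the open field (0.76 ± 0.13, edgeR, adjusted p = 0.00417).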

How the results depend on the processing

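The number of the 9 genes past the threshold depended on the setting, as did that of all genes, whose range over the settings is given below. With DESeq2 it was 1 in place of 0 in the basal Glu-CB1 line (of all genes, 12 in place of 3). It was also 1 in place of 0 in both states of the GABA-CB1 line (110 in place of 37 basal, 152 in place of 3 open field). In the Glu-CB1 line after the open field it was 4 in place of 1 (123 in place of 41). For the GABA-CB1 line over both states it was 3 in place of 1 (131 in place of 55). For the difference between lines it was 3 in place of 1 (basal, 79 in place of 43) and 4 in place of 2 (open field, 200 in place of 87). In the Glu-CB1 line after the open field it was 3 with no filter on low counts, 3 with at least 10 counts in every library, 3 with all 48 libraries in one fit, 3 with the animal number range as a covariate and 4 with the first component as a covariate. That covariate gave 1 in the basal GABA-CB1 line. Without the libraries that stand apart, a setting chosen after seeing the data like the first component, the number was 0 in the Glu-CB1 line after the open field, 1 over both states there, and 2 (basal) and 1 (open field) for the difference between lines. Leaving out 1 library gave 0 to 1 in the basal state of each line, 0 to 2 in the Glu-CB1 line after the open field, 1 to 2 over both states in the GABA-CB1 line and 1 to 3 for the basal difference between lines. The cause was not tested.

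Replicate numbers did not pair the mice (correlations of their deviations from -0.33 to 0.32). With the replicate block, 0 of the 9 genes passed in the Glu-CB1 line after the open field, where Npy was at 0.59 on the log2 scale (edgeR, adjusted p = 0.225), and 3 and 41 genes of all passed with and without it. Values near 0 changed sign: Sstr1 in the basal Glu-CB1 line was -0.00045 with all 48 libraries in one fit, -0.11 without the libraries that stand apart and -0.089 to 0.11 without 1 library. Sstr2 between lines after the open field was -0.039 without the libraries that stand apart, Sstr1 between lines in the basal state was -0.17 to 0.031 without 1 library, and Npy2r in the GABA-CB1 line after the open field was -0.0019 to 0.11. Over all genes, the number of DEGs ranged over the settings from 2 to 12 in the basal Glu-CB1 line (3 as reported), 3 to 123 after the open field (41), 7 to 269 in the basal GABA-CB1 line (37) and 1 to 152 after the open field (3). It was 14 to 106 (42) for Glu-CB1 and 19 to 131 (55) for GABA-CB1 over both states, 229 to 599 (276) and 15 to 270 (148) for the open field, 0 to 558 (0) for the change of the GABA-CB1 effect, and 21 to 79 (43, basal) and 44 to 200 (87, open field) between lines.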

Other observations

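Receptors varied together within groups to a differing degree. Npy1r and Npy5r, the neighbours on chromosome 8, had r = 0.47 over the 48 libraries and 0.60 after the group means were subtracted, the highest value among pairs of receptors within groups. Sstr1 and Sstr2 had 0.30 and 0.38. With each of the other 8 genes, Sstr4 had r between -0.31 and 0.29 over the 48 libraries.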
